A study of Mus musculus with 8 samples.

Results

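The 39 protein-coding genes of the Hox clusters were followed through RNA-seq of mouse embryonic stem cells (ESC) and their derivatives after retinoic acid treatment. They were taken from the deposited count table by symbol and biotype alone, without use of any measured value, and are 39 of its 32567 genes. Of these, 11 belong to Hoxa, 10 to Hoxb, 9 to Hoxc and 9 to Hoxd. By paralogue number, which marks the matching place in each cluster, 12 genes belong to groups 1 to 4, 11 to groups 5 to 8 and 16 to groups 9 to 13. The study compared a wild-type ESC line with a line homozygous for Hdh ex4/5 (Htt-null), an inactivated allele of Htt, the mouse counterpart of the gene mutated in Huntington's disease. Each line was sampled as ESC and as differentiated embryoid bodies (RA-DIFF). ESC of both genotypes were first kept without feeder cells for 4 passages. RA-DIFF cells of both genotypes came from embryoid bodies grown for 8 days, with 5 µM retinoic acid from day 4, and were collected 2 h after plating. Each of the 4 RNA conditions and each of the 4 small RNA conditions has 1 library, and each genotype is 1 cell line, so no difference below has a replicate check and no p-value is given.

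Hox genes encode homeodomain transcription factors that set the position of cells along the head-to-tail axis. Within a cluster the genes of low paralogue number lie at the 3′ end, are the first to respond to retinoic acid and act in the hindbrain, while those of high number lie at the 5′ end and act in the trunk, tail, limbs and genital bud. In ESC the clusters are known to be held silent by polycomb complexes. In the deposited annotation (GRCm38) Hoxa lies on the minus strand of chromosome 6, with Hoxa2 at 52162511 to 52164831 and Hoxa13 at 52257694 to 52260880. The other clusters lie on the plus strand. Hoxb spans chromosome 11 from Hoxb13 (96194316 to 96197447) to Hoxb1 (96365752 to 96368256), Hoxc spans chromosome 15 from Hoxc13 (102921103 to 102928814) to Hoxc4 (103018934 to 103036852), and Hoxd spans chromosome 2 from Hoxd13 (74668310 to 74671599) to Hoxd1 (74762980 to 74765142).

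The libraries held 87924678 counts in wild-type ESC, 63617410 in Htt-null ESC, and in RA-DIFF 110569127 in the one labelled wild type and 100927951 in the one labelled Htt-null. Where 4 counts are given in a row, they are in this order. Htt itself, the targeted gene, had 14385, 7260, 8212 and 9722 counts, or 166, 111, 73.3 and 98.7 CPM (counts-per-million). Htt-null ESC thus had less Htt than wild-type ESC, while of the RA-DIFF libraries the one with the Htt-null label had more. Since this goes against the label, the RA-DIFF libraries are named by their labels, and if these are exchanged every RA-DIFF difference between genotypes given here keeps its size and takes the opposite sign, while the ratios of RA-DIFF over ESC change in size. All 8 pluripotency markers were lower in both RA-DIFF libraries than in the ESC library of the same label, and 6 of 7 neural progenitor markers were higher (all but Sox2, which is also a pluripotency gene). Each of these differences is past an absolute log2 ratio of 0.75, as were 24.9% of all genes on the lower side and 32.5% on the higher for wild type by label, and 23.5% and 32.9% for Htt-null, among genes with a mean log2 CPM above 0.

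Hox transcripts were scarce in ESC and more abundant in RA-DIFF. The 39 genes together had 1358, 889, 8777 and 4869 counts, or 15.7, 13.6, 78.3 and 49.4 CPM. CPM here are relative to the library size as corrected by the TMM method, which allows for differences in composition. Both ESC libraries lie below both RA-DIFF libraries. More than 1 CPM was reached by 6 genes in wild-type ESC, 5 in Htt-null ESC, 21 in RA-DIFF labelled wild type and 15 in RA-DIFF labelled Htt-null. Counts of 0 were found for 7, 3, 6 and 5 genes. The limit that such a count allows is 3 counts, which is 0.0268 to 0.0460 CPM depending on the library. In such bulk samples fewer expressing cells and less RNA per cell cannot be told apart.

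The make-up of the Hox counts differed between stages more than between genotypes. Hoxb took 14.1% and 13.2% of all Hox counts in wild-type and Htt-null ESC and 58.4% and 46.1% in the RA-DIFF libraries labelled wild type and Htt-null. Hoxd went the other way, with 36.2% and 30.0% in ESC and 4.45% and 9.51% in RA-DIFF. By position, groups 9 to 13 held 56.2% and 55.1% of the Hox counts in ESC but 11.8% and 14.6% in RA-DIFF. Groups 1 to 4 held 30.7% and 30.9% in ESC, and 62.1% and 47.1% in RA-DIFF. Groups 5 to 8 rounded this out with 13.1%, 13.9%, 26.1% and 38.3%.

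**Figure D1:**
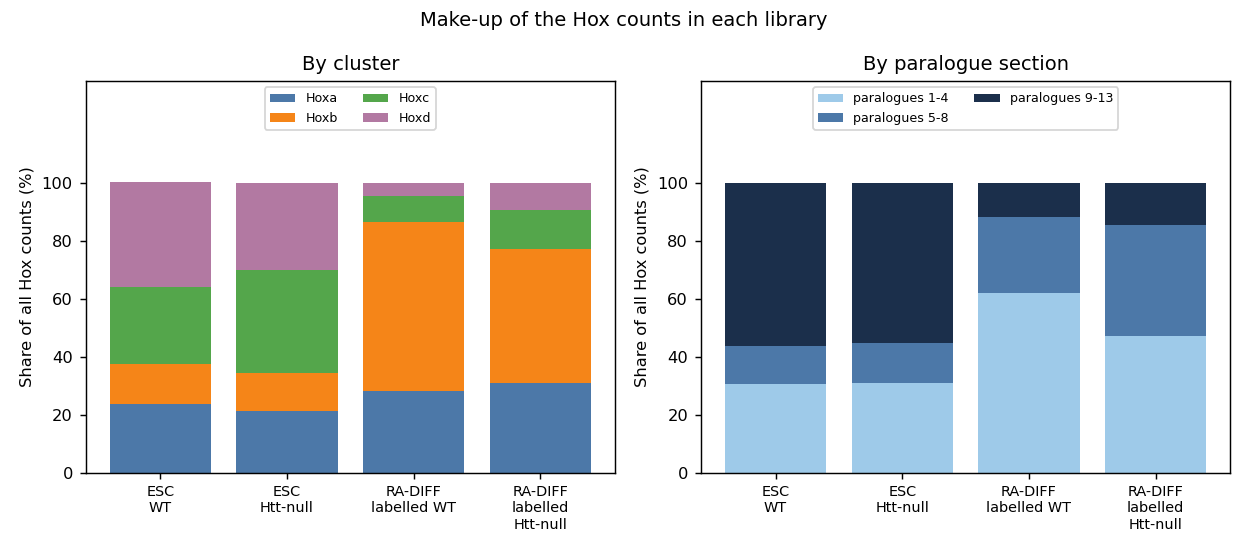
Share of all Hox counts (%) by cluster (left) and by paralogue section (right) in the 4 RNA-seq libraries, 1 library per bar. Hoxb takes 58.4% and 46.1% of the counts in RA-DIFF against 14.1% and 13.2% in ESC, and paralogues 9 to 13 take 56.2% and 55.1% in ESC against 11.8% and 14.6% in RA-DIFF.

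Levels of different genes were compared per length, as CPM per kb of exon. In wild-type ESC the highest level per length was that of Hoxd13 (1.24), and Hoxc4 (0.754), Hoxc13 (0.693) and Hoxb9 (0.659) were also among the 5 highest. These 4 genes were among the 5 highest in Htt-null ESC as well, at 0.784, 0.579, 0.916 and 0.417, with Hoxc13 above Hoxd13. Across the 39 genes the level per length in ESC bore little relation to paralogue number, with Spearman's rho of 0.23 in wild-type and 0.25 in Htt-null ESC, a description across genes of single libraries that share depth and base composition. The counts behind these levels are low. Hoxd13, which acts in the digits and genital bud, had 266 counts in wild-type ESC, and Hoxc4 had 168.

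In RA-DIFF the levels per length were lower at higher paralogue numbers. Spearman's rho over the 39 genes was -0.68 in the library labelled wild type and -0.65 in that labelled Htt-null. The same order was seen in Hoxa (rho -0.84 and -0.88, 11 genes), Hoxc (-0.88 and -0.97, 9 genes) and Hoxd (-0.49 and -0.57, 9 genes). Hoxb differed, with rho of -0.15 and 0.24 over its 10 genes. Its levels did not fall along genes 1 to 9: in the library labelled wild type Hoxb1 stood at 2.04, Hoxb8 at 2.71 and Hoxb9 at 2.26. Only Hoxb13 was near 0. The highest level per length in each cluster of the library labelled wild type was that of Hoxa2 (5.75), Hoxb4 (3.66), Hoxc4 (0.921) and Hoxd3 (0.415). In the library labelled Htt-null it was that of Hoxa2 (2.05), Hoxb9 (1.75), Hoxc5 (0.713) and Hoxd8 (0.899). Hoxd3 and Hoxd4 overlap each other and Gm28230 on the same strand, with 1578 of 4191 and 1406 of 2948 exon bases their own, and since reads that lie wholly on shared bases are not counted for either gene, their levels per length may be understated. Over exon bases that no gene of either strand shares, Hoxb3 would stand at 4.08 in the library labelled wild type, above the 3.66 of Hoxb4, and at 1.72 in that labelled Htt-null.

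**Figure D2:**
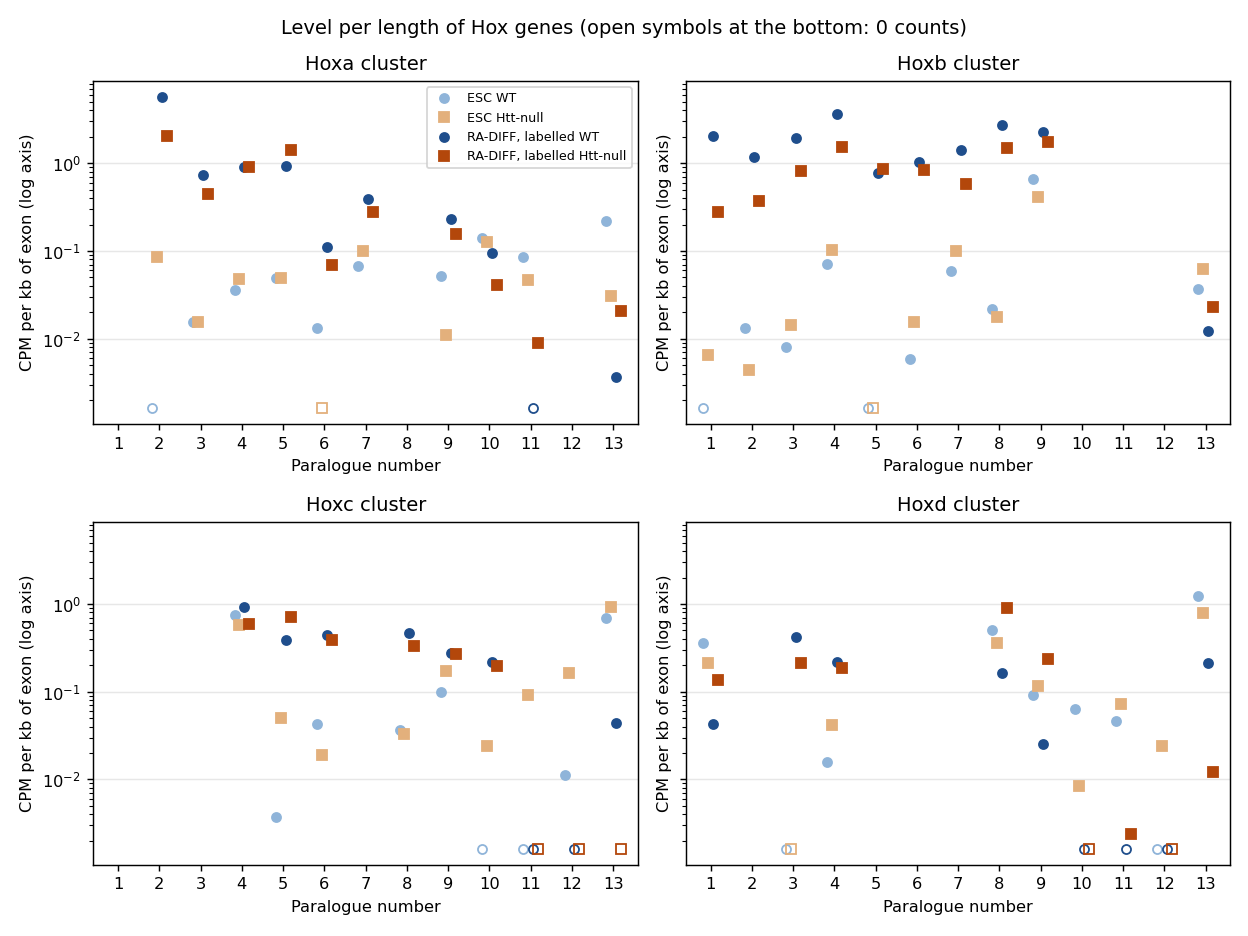
Level per length (CPM per kb of exon, log axis) of Hox genes against their paralogue number, with 1 panel per cluster and 1 symbol per library (circles wild type, squares Htt-null by label); open symbols at the bottom are counts of 0. In RA-DIFF (dark symbols) most of Hoxa and Hoxc lie lower at higher numbers, Hoxb stays high up to Hoxb9, and in ESC (pale symbols) Hoxd13 reaches 1.24 and 0.784.

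Differentiation was examined first between the libraries labelled wild type. A gene was called when its absolute log2 ratio was above 0.75, the fold limit of the study, and the mean of its log2 CPM over the 4 libraries was above 0. The study states a limit of 0 on the log2 CPM of edgeR, whose average of the libraries is less strict for genes that are low in some of them, and counts under that average are given as well. Most Hox genes had few counts in ESC, and just 5 of the 39, Hoxb4, Hoxb9, Hoxc4 and Hoxd8 among them, passed the level limit. These 5 do not stand for the family. Hoxb4 and Hoxb9 were called higher in RA-DIFF and Hoxd8 lower, against 32.5% of all 14417 genes tested called higher and 24.9% called lower. With edgeR's average above 0, 15 Hox genes passed, of which 10 were called higher (Hoxa2, Hoxa3, Hoxa5, Hoxb1 to Hoxb5, Hoxb8 and Hoxb9) and 3 lower (Hoxc13, Hoxd8 and Hoxd13), against 34.0% and 26.2% of 15492 genes. Several of these, such as Hoxa2 and Hoxb1 with 0 counts in wild-type ESC, pass this average through RA-DIFF. For such genes a call as higher follows in part from the limit itself, so these counts are no support for a rise. Without the level limit 36 Hox genes had a ratio, which needs more than 3 counts in one of the libraries. Of these, 23 were above the fold limit and 10 below its negative, against 34.5% and 31.5% of 26338 genes. The median log2 ratio was 3.23 over these 36 Hox genes and 0.06 over all 26338 genes. Over the 5 genes above the level limit it was 0.29.

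The sections of the clusters differed in this comparison. The median log2 ratio was 5.62 over the 12 genes of groups 1 to 4, 4.24 over the 11 genes of groups 5 to 8 and -1.87 over the 13 of 16 genes of groups 9 to 13 that had a ratio. Above the fold limit were 9 of 12, 10 of 11 and 4 of 13 genes, and below its negative were 1, 1 and 8. By cluster the median was 2.51 in Hoxa, 6.22 in Hoxb, 3.38 in Hoxc and -1.99 in Hoxd. Genes with a count of 0 on one side enter these medians with that count set to 3, as bounds. There were 8 such genes among the 36.

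Among genes that reached 100 counts in one of the libraries compared, Hoxa2, Hoxb3, Hoxb6 and Hoxb1 had the largest positive ratios or bounds. Hoxb5 and Hoxd3, with 0 counts in wild-type ESC, have only bounds of at least 5.95 and 5.65 and could rank higher. Hoxa2 (ENSMUSG00000014704, chr6:52162511-52164831), which patterns the second branchial arch and rhombomeres of the hindbrain, had 0, 10, 1144 and 359 counts. Its count of 0 in wild-type ESC makes RA-DIFF labelled wild type at least 295-fold higher. Hoxb1 (ENSMUSG00000018973), which marks rhombomere 4, had 0, 1, 532 and 64 counts and was at least 137-fold higher in the same comparison. Hoxb3 had 3, 4, 915 and 339 counts, a log2 ratio of 7.88 with a 95% interval of 6.33 to 10.16. Hoxb6, a gene of the middle of the cluster, had 1, 2, 226 and 160 counts and a log2 ratio of 7.45 (4.96 to 12.76). All intervals are exact conditional binomial intervals that cover counting error only. Hoxa2, Hoxb1, Hoxb3 and Hoxb6 were each at 10 counts or fewer in both ESC libraries, and in both RA-DIFF libraries at 64 or more.

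The other Hoxb genes up to Hoxb9 were also higher in RA-DIFF labelled wild type. Hoxb8 (5, 3, 800 and 388 counts) had a log2 ratio of 6.95 (5.72 to 8.58), Hoxb2 (4, 1, 464 and 129 counts) one of 6.49 (5.12 to 8.37) and Hoxb4 (16, 17, 1053 and 390 counts) one of 5.67 (4.96 to 6.48). Hoxb5 had no count in either ESC library and 240 and 237 in RA-DIFF, at least 61.9-fold higher by the libraries labelled wild type. Hoxb9, a gene of the trunk, was the member of the cluster with the most counts in ESC (147, 70, 652 and 444) and had a log2 ratio of 1.78 (1.52 to 2.05). Hoxb13, which lies apart from the rest of the cluster, had 7, 9, 3 and 5 counts. Its log2 ratio of -1.59 (-4.18 to 0.54) has an interval that includes 0.

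In Hoxa the ratios passed from high to low along the cluster. Hoxa3 (8, 6, 495 and 263 counts), Hoxa4 (5, 5, 161 and 144) and Hoxa5 (8, 6, 195 and 263) had log2 ratios of 5.58 (4.59 to 6.80), 4.64 (3.39 to 6.28) and 4.24 (3.23 to 5.47). Hoxa7 (17, 19, 125 and 79 counts) and Hoxa9 (25, 4, 144 and 86) followed with 2.51 (1.77 to 3.33) and 2.16 (1.54 to 2.83). The genes past Hoxa9 were not higher: Hoxa10 (40, 27, 35 and 13 counts) had a log2 ratio of -0.56 (-1.26 to 0.13), and Hoxa11, known from the uterus and forearm, had 17, 7, 0 and 2 counts and was at least 7.32-fold lower. Hoxa6 was low in all libraries, with 1, 0, 11 and 6 counts and a log2 ratio of 3.09 (0.31 to 8.52). Antisense genes overlap Hoxa3, Hoxa4, Hoxa7 and Hoxa11. The strand option of the counting is not named in the methods, by which it would be the default of the counting tool, and whether reads of the overlapping genes were kept apart was not tested.

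In Hoxc the genes 5 to 10 were higher and Hoxc13 lower, and in Hoxd the genes 3 and 4 were higher and the others with a ratio lower. Hoxc5 (1, 10, 134 and 217 counts), Hoxc8 (9, 6, 147 and 93) and Hoxc6 (9, 3, 121 and 91) had log2 ratios of 6.70 (4.19 to 12.01), 3.66 (2.70 to 4.82) and 3.38 (2.41 to 4.54). Hoxc10, with 0, 3, 47 and 37 counts, was at least 12.1-fold higher and Hoxc9, with 21, 27, 75 and 64, had a log2 ratio of 1.47 (0.75 to 2.24). Hoxc4 stood at 168, 97, 265 and 149 counts, a log2 ratio of 0.29 (0.00 to 0.58), the smallest in size of the cluster. Hoxd3, with 0, 0, 195 and 87 counts, was at least 50.3-fold higher and Hoxd4, with 4, 8, 72 and 54, had a log2 ratio of 3.80 (2.38 to 5.71). Hoxd8 (ENSMUSG00000027102, chr2:74704615-74707933) had 119, 65, 50 and 243 counts and a log2 ratio of -1.62 (-2.13 to -1.13), and Hoxd9 (17, 16, 6 and 50 counts) one of -1.87 (-3.50 to -0.46). Hoxd10 (10, 1, 0 and 0 counts) and Hoxd11 (17, 20, 0 and 1) were at least 4.31-fold and 7.32-fold lower. Hoxc11 (0, 12, 0 and 0 counts), Hoxc12 (1, 11, 0 and 0) and Hoxd12 (0, 4, 0 and 0) had no ratio here, being at 3 counts or fewer in both libraries.

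Between the libraries labelled Htt-null the groups 1 to 4 and 5 to 8 again had positive medians and the groups 9 to 13 a negative one, but Hoxd8 and Hoxd9 were higher in RA-DIFF instead of lower. Among the 5 genes above the level limit 4 were called higher in RA-DIFF, Hoxb4, Hoxb9 and Hoxd8 among them, and 0 lower, against 32.9% and 23.5% of 14417 genes. With edgeR's average 12 of 15 were called higher and 2 lower, against 34.4% and 24.9% of 15491 genes. Here too several of the 15 pass through their RA-DIFF counts. Without that limit 24 of 38 Hox genes were above the fold and 9 below its negative, against 32.7% and 32.6% of 25963 genes. The median log2 ratio was 2.12 over the 38 Hox genes and 0.02 over all genes. By section it was 4.26, 3.85 and -1.44, and by cluster 1.46 in Hoxa, 5.56 in Hoxb, 0.65 in Hoxc and 0.20 in Hoxd. The median of Hoxa was 3.46 with a prior count of 0.5 in place of the floor. The largest increases among genes that reached 100 counts were those of Hoxb2 (log2 ratio 6.42, 3.91 to 11.73), Hoxb8 (6.42, 4.86 to 8.70), Hoxb3 (5.81, 4.44 to 7.70) and Hoxb6 (5.73, 3.85 to 8.79). Hoxb5, with 0 counts in Htt-null ESC, has only a bound of at least 5.71 and could rank above them. The only decreases under the same limit on counts were those of Hoxc13 and Hoxd13. The ratios of the 2 genotypes rest on different libraries, and the difference between them was not tested.

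**Figure D3:**
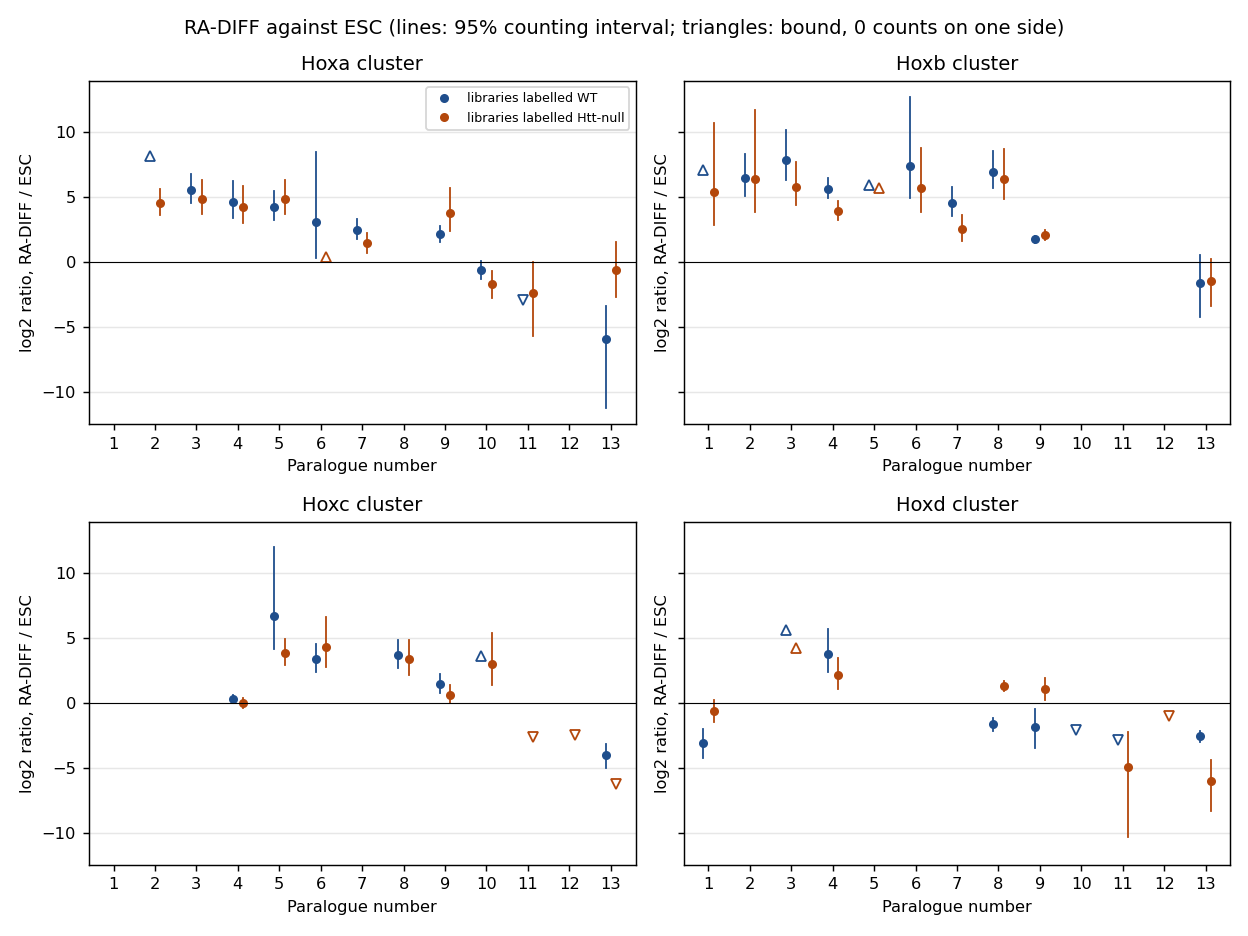
Log2 ratio of RA-DIFF over ESC for Hox genes against their paralogue number, 1 panel per cluster, for the libraries labelled wild type (blue) and Htt-null (dark orange); lines are 95% counting intervals and triangles are bounds where one count was 0. In Hoxa and Hoxc both series lie below 0 at the highest numbers, in Hoxb only Hoxb13 is below 0, and at Hoxd8 and Hoxd9 the series lie on opposite sides of 0.

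The ends of the clusters were set side by side. In group 1, Hoxb1 was higher in RA-DIFF for both labels, with a log2 ratio of 5.41 (2.88 to 10.73) between the libraries labelled Htt-null. Hoxd1, the group 1 gene of its cluster, had 58, 26, 9 and 25 counts and was lower at -3.06 (-4.26 to -2.03) between the libraries labelled wild type, while its -0.65 (-1.50 to 0.20) between those labelled Htt-null has an interval that includes 0. Hoxb1 and Hoxd1 thus lay on opposite sides of 0 between the libraries labelled wild type. Group 13 stands at the other end. Hoxc13, a gene of hair and nails, had 148, 147, 12 and 0 counts, with a log2 ratio of -3.99 (-4.98 to -3.15) between the libraries labelled wild type and a level at least 74.0-fold lower in RA-DIFF between those labelled Htt-null. Hoxd13 had 266, 127, 59 and 3 counts, with log2 ratios of -2.54 (-2.97 to -2.13) and -6.00 (-8.29 to -4.42). Hoxa13, a gene of the limb end and hindgut, had 47, 5, 1 and 5 counts, with -5.92 (-11.26 to -3.38) and -0.59 (-2.71 to 1.53). Hoxb13 had -1.59 and -1.44 (-3.37 to 0.29), both with intervals that include 0. The 4 genes of group 13 summed to 468, 288, 75 and 13 counts, and both RA-DIFF libraries lie below both ESC libraries.

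Because Htt goes against the labels in RA-DIFF, the ratios of RA-DIFF over ESC were also formed with the RA-DIFF labels exchanged. Over wild-type ESC the 4 largest ratios or bounds among genes that reached 100 counts in one of the libraries compared were then those of Hoxc5 (log2 ratio 7.58, 5.08 to 12.89), Hoxb6 (7.14, 4.64 to 12.45), Hoxa2 (at least 105-fold higher) and Hoxb3 (6.64, 5.08 to 8.92), while Hoxb1 was at least 18.8-fold higher. Hoxd8 and Hoxd9 changed direction over wild-type ESC, to 0.85 (0.52 to 1.18) and 1.37 (0.55 to 2.26), and over Htt-null ESC, to -1.16 (-1.72 to -0.60) and -2.20 (-3.84 to -0.77). The medians by section, 4.54, 3.29 and -1.80 over wild-type ESC and, for the first 2 sections, 5.21 and 3.83 over Htt-null ESC, kept their signs, as did the negative median of paralogues 9 to 13 over Htt-null ESC. Of the clusters Hoxd changed most, with medians of -0.28 over wild-type and -1.54 over Htt-null ESC.

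ESC of the 2 genotypes were compared next. Of the 5 Hox genes above the level limit 0 were called in either direction, against 4.03% of 14407 genes called higher and 2.73% called lower in Htt-null. With edgeR's average 13 Hox genes had a ratio, of which 2 were called higher and 1 lower, against 5.20% and 3.55% of 15313 genes. These 3 pass that limit through their RA-DIFF counts and are scarce in ESC, where Hoxa2 had 0 and 10 counts, Hoxb3 3 and 4 and Hoxb2 4 and 1, the last 2 with intervals that include 0. Without the limit 9 of 33 Hox genes were above the fold and 6 below its negative, against 15.4% and 9.74% of 24643 genes, and the median log2 ratio was 0.00 over Hox genes and over all genes. These genes are low: of the 6 that reached 100 counts in either library, Hoxd13 and Hoxb9 had log2 ratios of -0.66 (-0.97 to -0.35) and -0.66 (-1.09 to -0.24), Hoxd8 one of -0.46 (-0.92 to -0.01), Hoxc4 one of -0.38 (-0.76 to -0.01) and Hoxc13 one of 0.40 (0.06 to 0.74). The summed Hox counts had a log2 ratio of -0.20 (-0.32 to -0.08).

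Among the scarce genes the 5′ ends of Hoxa and Hoxc differed in opposite directions in ESC. Hoxa13 had 47 counts in wild type and 5 in Htt-null (log2 ratio -2.82, -4.51 to -1.50) and Hoxa9 had 25 and 4 (-2.23, -4.22 to -0.70). Hoxc12 had 1 and 11 (3.87, 1.09 to 9.30) and Hoxc11 had 0 and 12, at least 5.32-fold higher in Htt-null. Hoxc5 had 1 and 10 (3.73, 0.92 to 9.17) and Hoxa2 had 0 and 10, at least 4.43-fold higher. Few counts stand behind each of these values. The 4 genes of Hoxa 9 to 13 summed to 129 counts in wild-type and 43 in Htt-null ESC, a log2 ratio of -1.17 (-1.71 to -0.67), and the 5 genes of Hoxc 9 to 13 to 170 and 200, one of 0.65 (0.34 to 0.95). ESC were grown on feeder cells before the feeder-free passages, and mesenchyme markers were called lower in Htt-null ESC for 8 of 16 genes beside 2.73% of all genes, with a summed level of 171 CPM in wild type and 145 in Htt-null and 1 marker at 0 in each. Some of the 8 pass the level limit through RA-DIFF, such as Dcn with 10 and 0 counts in ESC and 2036 and 10729 in RA-DIFF. Genes of chromosome 11, which carries Hoxb, had a median log2 ratio of 0.21 in this comparison against -0.06 on the other chromosomes, while chromosomes 6, 15 and 2 were at -0.12, -0.10 and -0.08. The part of either in the Hox values was not tested.

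In RA-DIFF the library labelled Htt-null had fewer Hox transcripts. Among the 5 genes above the level limit 2 were called higher in it, Hoxd8 among them, and Hoxb4 lower, against 11.0% of 14417 genes called higher and 7.46% called lower. With edgeR's average 2 of 15 were called higher and 8 lower, against 11.9% and 9.19% of 15442 genes. Genes scarce in ESC pass this average through RA-DIFF, where the library labelled wild type had more Hox counts. The lower calls thus follow in part from the limit. Without the limit 7 of 33 Hox genes were above the fold and 11 below its negative, against 15.5% and 16.4% of 25128 genes, with a median log2 ratio of -0.47 over Hox genes and -0.04 over all genes. The summed Hox counts had a log2 ratio of -0.66 (-0.71 to -0.61). Hoxb carried most of this, at a median of -1.05 and a ratio of its sums of -1.01 (-1.08 to -0.93). Hoxa was at a median of -0.52, Hoxc at -0.22 and Hoxd at 0.72. Groups 1 to 4 had a median of -0.85, groups 5 to 8 one of -0.31 and groups 9 to 13 one of -0.26.

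Within Hoxb the difference was largest at the 3′ end. Hoxb1 had 532 counts in the library labelled wild type and 64 in that labelled Htt-null, a log2 ratio of -2.87 (-3.27 to -2.49). It was followed by Hoxb2 at -1.66 (-1.95 to -1.38), Hoxb3 at -1.25 (-1.43 to -1.06) and Hoxb4 at -1.25 (-1.42 to -1.08). All 4 genes of Hoxb 1 to 4 were thus below the negative fold limit. Hoxb5 at 0.17 (-0.10 to 0.43), Hoxb6 at -0.31 (-0.61 to -0.01) and Hoxb9 at -0.37 (-0.55 to -0.19) were not, while Hoxb7 at -1.27 (-1.64 to -0.92) and Hoxb8 at -0.86 (-1.04 to -0.68) were. The rank correlation of the log2 ratio with paralogue number was 0.71 over the 10 Hoxb genes, but 0.14 over the 33 Hox genes with a ratio, again as a description across genes of 2 libraries.

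The other clusters held genes that differed in both directions. In Hoxa, Hoxa2 was lower in the library labelled Htt-null (log2 ratio -1.49, -1.66 to -1.31) and Hoxa3 also (-0.73, -0.95 to -0.51), while Hoxa5 was higher (0.62, 0.35 to 0.89). Hoxa4, between Hoxa3 and Hoxa5, was at 0.03 (-0.31 to 0.36). In Hoxd the neighbours Hoxd8 and Hoxd9 were higher. Hoxd8 had 50 counts in the library labelled wild type and 243 in that labelled Htt-null (log2 ratio 2.47, 2.02 to 2.94), and Hoxd9 had 6 and 50 (3.25, 2.02 to 4.76). Hoxd1 was also higher at 1.66 (0.51 to 2.94), Hoxd3 lower at -0.98 (-1.36 to -0.61), and Hoxd13 lower at -4.11 (-6.43 to -2.49). In Hoxc, Hoxc5 was higher at 0.88 (0.56 to 1.20) and Hoxc4 lower at -0.64 (-0.94 to -0.35), Hoxc13 was at least 3.52-fold lower, and Hoxc6, Hoxc9 and Hoxc10 had intervals that include 0.

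Cell type markers differed between these RA-DIFF libraries in the same comparison, in which the shares of all genes called were 11.0% on the higher side and 7.46% on the lower. In the library labelled Htt-null 14 of 16 mesenchyme markers were called higher and 0 lower, with a summed level of 5802 CPM against 2507 in the library labelled wild type. Neuron markers were called lower for 9 of 12 and higher for 0, with sums of 1435 against 3033 CPM. Neural progenitor markers were lower for 3 of 7 (Pax6, Hes5 and Sox1), with sums of 2726 against 2747 CPM. Pluripotency markers were called lower for 6 of 8 and higher for 0, with a median log2 ratio of -2.44 and sums of 227 against 265 CPM, most of it from Sox2 (212 and 213 CPM). No marker of the mesenchyme, neuron, neural progenitor or pluripotency lists was at 0 in either RA-DIFF library. The part of these cell types in the Hox differences was not tested.

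**Figure D4:**
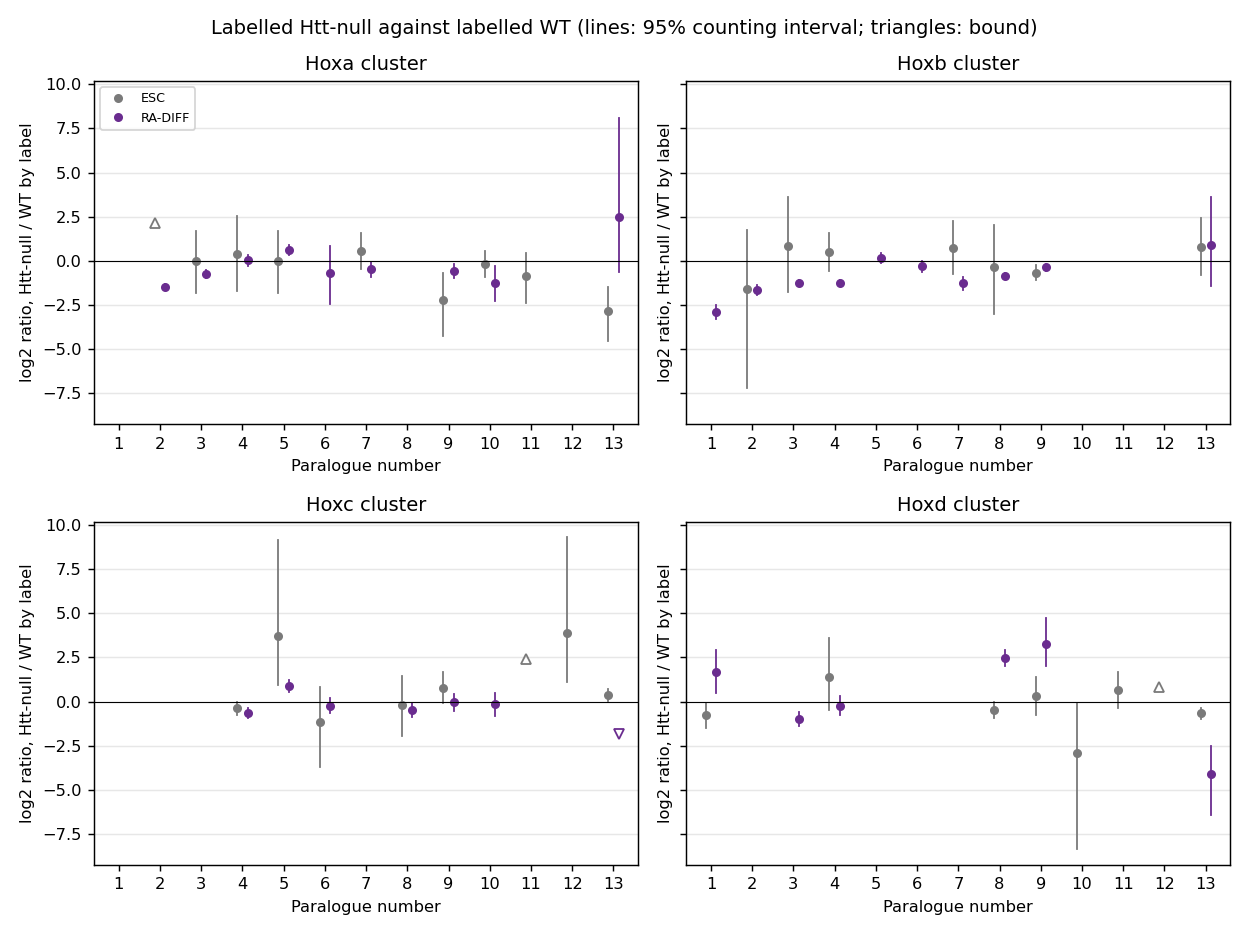
Log2 ratio of the library labelled Htt-null over that labelled wild type for Hox genes against paralogue number, 1 panel per cluster, in ESC (grey) and in RA-DIFF (purple); lines are 95% counting intervals and triangles bounds. In RA-DIFF Hoxb1 to Hoxb4 lie between -2.87 and -1.25, Hoxd8 and Hoxd9 lie at 2.47 and 3.25, and the long lines in ESC show how few counts stand behind most of its ratios.

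Retinoic acid acts through receptor pairs that bind direct repeats of a short half-site in DNA, and such repeats are known near the 3′ genes of the clusters. The clusters with 20 kb on each side were searched on both strands of GRCm38 for 2 half-sites, each with the letters AGGTCA or AGTTCA or GGGTCA or GGTTCA, with 5 bases of any kind between them. The search found 3 matches at Hoxa, 3 at Hoxb, 1 at Hoxd and 0 at Hoxc. Per Mb this is 20.6, 14.0, 7.3 and 0.0, against 3.3, 3.8, 3.5 and 3.6 on the whole of the same chromosomes. The 4 matches shown lie within Hoxa3, Hoxb3 and Hoxd3 and nearest to Hoxb1, to set them beside the ratios of those genes. Capitals mark the half-sites, and each is written on the strand where it reads as a repeat.
Within Hoxa3 (chr6:52175533-52175549, minus strand): GGTTCAagaagAGTTCA
Past the 3′ end of Hoxb1 (chr11:96372776-96372792, plus strand): GGTTCAtagagAGTTCA
Within Hoxb3 (chr11:96341236-96341252, plus strand): GGTTCAagaagAGTTCA
Within Hoxd3 (chr2:74741540-74741556, plus strand): GGTTCAagcagAGTTCA
The match past Hoxb1 lies 4520 bp from the gene, and all 4 hold the same pair of half-sites. These 4 genes, Hoxd3 and Hoxb1 as bounds, had log2 ratios between 5.58 and 7.88 in RA-DIFF over ESC by the libraries labelled wild type. A further match lies 14582 bp from Hoxb13, which had a log2 ratio of -1.59 with an interval that includes 0. The other matches at Hoxa are not placed here. The search was made and the matches shown were picked after the ratios were seen, so their pairing with high ratios is no support for a link. Hoxc, with no match, held genes with ratios up to 6.70, and a match is no measure of binding. With 2 bases between the half-sites the search gave 2 matches at Hoxa, 1 at Hoxb and 0 at the others, at 13.8 and 4.7 per Mb against 9.8 and 12.6 on their chromosomes.

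RefSeq promoters (GRCm38.p6, a short window around each start) were matched for 22 of the 39 Hox genes, in 24 entries. They held a median of 14.5 CpG pairs against 7 over all 32851 promoters. The single half-site AGGTCA stood on either strand in 7 of the 24 (29.2%, against 16.3% of all promoters), those of Hoxa5, Hoxb4, Hoxc4, Hoxd3, Hoxd4, Hoxd8 and Hoxd10. Among these genes are members higher in RA-DIFF, such as Hoxb4, and members lower there, such as Hoxd10.

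Noncoding genes inside the clusters were counted as well. The table holds 26 of them, 21 with more than 3 counts in some library. Between the libraries labelled wild type 9 were higher in RA-DIFF past the fold and 6 lower, and between those labelled Htt-null 9 and 5, without the level limit and against the shares of all genes given above. Hoxaas2, antisense to Hoxa3, had 8, 1, 630 and 153 counts and stood high where Hoxa3 did. Hoxb3os and Hoxb5os, antisense to Hoxb3 and Hoxb5, had no count in ESC and 161 and 74, and 154 and 97, in RA-DIFF. The exons of Hoxb3os overlap those of Hoxb3 and Hoxb2, and whether reads of the 2 strands were kept apart there was not tested. Gm53, a long noncoding RNA between Hoxb13 and Hoxb9, was lower in RA-DIFF with 1305, 1209, 28 and 35 counts. Other transcripts of that interval, Mir196a-1 (44, 35, 1 and 2 counts) and the pseudogene Gm11539 (19, 14, 5 and 5), were lower as well.

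The coding neighbours outside the clusters did not all go with them. Ttll6, beside Hoxb13, had 1089, 1884, 22 and 23 counts and Skap1, beside Hoxb1, had 61, 90, 14 and 11, both lower in RA-DIFF. Calcoco1, Smug1 and Mtx2, the neighbours at Hoxc and at the Hoxd1 end, were not past the fold in any of the 4 comparisons, with log2 ratios between -0.42 and 0.64. Skap2, at the 3′ side of Hoxa, had 3546, 2372, 762 and 1933 counts and was lower in RA-DIFF, with log2 ratios of -2.59 and -0.89. Evx2, a homeobox gene beside Hoxd13, had 0, 0, 485 and 12 counts, nearly all of them in RA-DIFF labelled wild type. Evx1, beside Hoxa13, had 1, 2, 32 and 14 counts.

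Genes that act with or upstream of Hox genes were examined as lists. Of 9 cofactor genes of the Pbx, Meis and Pknox families, which bind DNA together with Hox proteins, 8 were called higher in RA-DIFF between the libraries labelled wild type and 7 between those labelled Htt-null, with 0 lower in either, against 32.5% and 32.9% of all genes called higher. Meis1 had 89, 127, 9395 and 8648 counts and Meis3 had 79, 76, 5141 and 2306. Of 15 genes of the retinoic acid pathway 8 were called higher and 2 lower (the receptors Rara and Rarg) in each of these comparisons, beside 32.5% and 32.9% of all genes called higher and 24.9% and 23.5% called lower. The receptor Rarb had 54, 38, 765 and 3805 counts, and Cyp26b1, which degrades retinoic acid, had 26, 11, 17738 and 1242. In RA-DIFF 5 of the 15 were called higher in the library labelled Htt-null, Rarb with a log2 ratio of 2.50 among them, and 4 lower, Cyp26b1 with -3.65 and the binding proteins Crabp1 and Crabp2 with -1.65 and -1.59 among them, beside 11.0% and 7.46% of all genes.

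The Cdx genes, which activate middle and posterior Hox genes, and the Evx genes were all 5 below the level limit, so that none could be called. Cdx1 had 15, 44, 77 and 7 counts and Cdx2 had 0, 3, 33 and 1. Of 6 regulators of hindbrain segments, 2 were called higher and 0 lower in RA-DIFF between the libraries labelled wild type, and 1 and 1 between those labelled Htt-null. Only 3 of the 6 pass the level limit, and the shares of all genes called were 32.5% and 24.9%, and 32.9% and 23.5%. Fgf3 (213, 152, 613 and 136 counts) was called higher between the libraries labelled wild type and lower between those labelled Htt-null, there at the limit with a log2 ratio of -0.75. Of 16 polycomb and trithorax genes, 4 were called higher and 8 lower in RA-DIFF between the libraries labelled wild type, and 4 and 7 between those labelled Htt-null, beside 32.5% and 24.9%, and 32.9% and 23.5%, of all genes. Between genotypes 0 of the 16 were called in either direction, beside 4.03% and 2.73% of all genes in ESC and 11.0% and 7.46% in RA-DIFF. Of 5 paraxial mesoderm markers 2 passed the level limit, Tcf15, which was called lower in RA-DIFF for both labels, and Tbx6, called lower between the libraries labelled Htt-null. Below that limit T, a gene of the primitive streak and tail bud, had 32, 19, 68 and 1172 counts and Meox1 had 14, 4, 76 and 319, with log2 ratios of 5.35 and 5.72 between the libraries labelled Htt-null.

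The clusters also carry miRNA genes, and small RNA was sequenced in the same 4 conditions with 12888905, 11976744, 25656673 and 24290346 counts. The mature sequences are shown with the seed (bases 2 to 8), which pairs with target mRNAs, in capitals, because they fall into a few seed families. They are those of RefSeq on GRCm38.p6.
miR-10a-5p, from chr11:96317186-96317208 (plus strand) between Hoxb5 and Hoxb4: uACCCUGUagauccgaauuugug
miR-10b-5p, from chr2:74726074-74726096 (plus strand) within Hoxd3 and Hoxd4: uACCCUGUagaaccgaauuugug
miR-196a-5p, from chr11:96265187-96265208 between Hoxb13 and Hoxb9 and from chr15:102973365-102973386 between Hoxc10 and Hoxc9, inside the long annotated span of Hoxc5 (both plus strand): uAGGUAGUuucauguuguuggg
miR-196b-5p, from chr6:52230129-52230150 (minus strand) within Hoxa9: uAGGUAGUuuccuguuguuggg
miR-615-3p, from chr15:103014969-103014990 (plus strand) within Hoxc5: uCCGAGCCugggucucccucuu
miR-10a-5p and miR-10b-5p share the seed ACCCUGU and differ by 1 base (U12A, the base of miR-10a-5p first, counted from the 5′ end), and miR-196a-5p and miR-196b-5p share AGGUAGU and also differ by 1 (A12C, the base of miR-196a-5p first). A read with an error at that base could be assigned to the other miRNA. The 2 copies of miR-196a-5p are identical and were counted as 1.

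The miR-10 family dominated the small RNA of RA-DIFF. miR-10a-5p had 23372, 10127, 9846694 and 10090451 counts, or 0.181%, 0.0846%, 38.4% and 41.5% of all miRNA counts. miR-10b-5p had 33115, 25019, 10657770 and 10131529 counts, or 0.257%, 0.209%, 41.5% and 41.7%. Each was thus below 1% of the library in ESC and near 40% in both RA-DIFF libraries. Shares this large press down the shares of all other miRNAs, so the scaling matters: over all miRNAs the median log2 ratio of RA-DIFF over ESC was -0.18 and -0.19 with TMM and -1.34 and -2.07 with library totals, in the libraries labelled wild type and Htt-null. For miR-10a-5p the log2 ratio was 8.89 (8.87 to 8.91) and 10.82 (10.79 to 10.85) with TMM, and 7.73 and 8.94 with totals. The small RNA counts hold no measure of Htt, so not even that weak check exists for the labels of these libraries.

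The other miRNAs of the clusters divided by family. miR-615-3p had 37, 14, 9779 and 7889 counts, with log2 ratios of 8.22 (7.75 to 8.72) and 10.00 (9.25 to 10.87) on the TMM scale, and its host Hoxc5 was likewise higher in RA-DIFF. miR-196a-5p went the other way with 1801, 1893, 71 and 52 counts and log2 ratios of -4.49 (-4.86 to -4.15) and -4.33 (-4.76 to -3.93). miR-196b-5p had 147, 168, 38 and 61 counts and ratios of -1.78 (-2.33 to -1.26) and -0.60 (-1.05 to -0.17). With library totals the ratios of miR-196b-5p were -2.94 and -2.48, and with DESeq2 size factors -1.70 and -0.34 (-0.79 to 0.09), so that the second passes the fold limit with totals alone. miR-196a-1-3p, the other arm made from the copy between Hoxb13 and Hoxb9, had 109, 86, 0 and 1 counts, and the RNA-seq counts of Mir196a-1 were 44, 35, 1 and 2. The transcript Gm53 from the same interval was high and low in the same libraries. Of the 8 arms from the clusters with mean log2 CPM above 0, 6 were called higher in RA-DIFF and 2 lower between the libraries labelled wild type, against 34.5% and 31.4% of 650 miRNAs, and 6 and 1 between those labelled Htt-null, against 30.5% and 39.5%.

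Between genotypes the miRNAs of the clusters differed less. In ESC 1 of the 8 arms was called higher and 4 lower in Htt-null, against 24.0% and 16.2% of 637 miRNAs. Of these 5, miR-10a-3p, miR-10b-3p and miR-615-5p had 4 counts or fewer in both libraries, and miR-10a-5p had a log2 ratio of -1.33 (-1.37 to -1.30) with TMM and -1.10 with totals. In RA-DIFF the arm called was miR-196b-5p, higher in the library labelled Htt-null as were 14.0% of 648 miRNAs, at 1.24 (0.64 to 1.87). miR-10a-5p was at 0.60 with TMM and 0.11 with totals, and miR-10b-5p at 0.49 and 0.01. The direction for miR-615-3p, miR-10a-3p, miR-10b-3p, miR-615-5p and miR-196a-5p turned with the scaling in RA-DIFF, from 0.25 with TMM to -0.23 with totals for miR-615-3p.

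**Figure D5:**
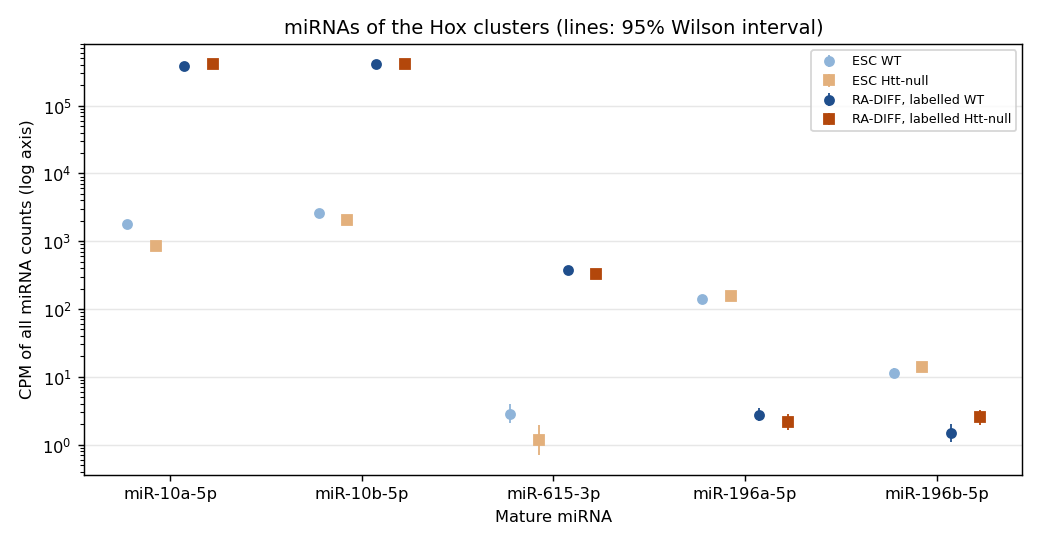
Level in CPM, here per total of miRNA counts (log axis), of the 5 main mature miRNAs of the Hox clusters in the 4 small RNA libraries; lines are 95% Wilson intervals, mostly smaller than the symbols. miR-10a-5p, miR-10b-5p and miR-615-3p are higher in both RA-DIFF libraries than in both ESC libraries, and miR-196a-5p and miR-196b-5p are lower.

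Matches to these seeds were sought in the longest annotated 3′ UTR of each gene (GENCODE vM21, 18585 genes with one, all 39 Hox genes among them). The match to the miR-196 seed, ACTACCT, was found in 9 of the 39 Hox genes (Hoxa4, Hoxa5, Hoxa7, Hoxa9, Hoxb1, Hoxb6, Hoxb7 and Hoxc8 among them) and in 6.97% of all genes. That to the miR-10 seed, ACAGGGT, was found in 4 (Hoxa3, Hoxb3 and Hoxd1 among them) and in 13.5% of all genes, and that to miR-615-3p, GGCTCGG, in Hoxb4 alone and in 3.1% of all genes. Hoxa7 holds 4 matches to the miR-196 seed, the most of any Hox gene. Its site with the most complementary bases is shown beside those of Hoxb7 and Hoxd1, with the seed match in capitals, as examples of both families.
Hoxa7, miR-196 family, from base 912 of a 3′ UTR of 1638 bases: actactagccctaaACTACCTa
Hoxb7, miR-196 family, from base 171 of 535: ctgtaaaaaaatatACTACCTa
Hoxd1, miR-10 family, from base 559 of 756: tagcggaacaaatccACAGGGTa
Of the miR-196 sites, those of Hoxa7 and Hoxb7 pair at 14 of 22 bases with miR-196a-5p, and the Hoxd1 site pairs at 13 of 23 with miR-10a-5p. Gene and miRNA went opposite ways in some of these pairs and the same way in others. Hoxb6 and Hoxb7 were higher in RA-DIFF, where miR-196a-5p was lower. Hoxa3 and Hoxb3 with a miR-10 match and Hoxb4 with the miR-615-3p match were higher in RA-DIFF, as were those miRNAs. Hoxd1, also with a miR-10 match, was lower in RA-DIFF between the libraries labelled wild type (log2 ratio -3.06), where miR-10a-5p and miR-10b-5p were higher. A match of letters is a description and no measure of targeting.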

How the data were processed

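RNA-seq was done on 4 libraries and small RNA-seq on 4, with 1 library per condition. Per the study's methods the authors aligned RNA reads with TopHat 2.0.14 to GRCm38.p4 and counted them per Gencode M6 gene with HTSeq 0.6.1, and small RNA reads were trimmed with cutadapt 1.3, aligned to miRBase mature sequences with BWA and counted where unique. The deposited values are raw read counts per gene or miRNA. The strand option is not named, and per the methods unnamed options kept their defaults. Groups were taken from the labels, and 0 sample columns were left unused. Counts were divided by TMM effective library sizes (edgeR 4.0.16, R 4.3.3). With single libraries no p-value is given, and exact tests at assumed dispersions served only as alternatives. Log2 ratios carry exact conditional binomial 95% intervals, a count of 0 was set to 3, and no ratio was formed when both counts were 3 or lower. A call needs an absolute log2 ratio above 0.75 and a mean of the 4 log2 CPM above 0. The study's limit is on edgeR's log2 CPM, and counts under edgeR's average were added after values were seen. Levels per length used the exon union of GENCODE vM21, in which 32304 of the 32567 genes were found. Genes in the text are the Hox members, some results of which are not reported here, with intervals for the 4 highest and 4 lowest ratios among members with at least 100 counts, the genes leading each cluster and groups 1 and 13. Intervals of other members, and the promoter, repeat and seed searches, were added after values were seen. The rule for the members uses no measured value, but it and the gene lists were chosen with earlier results of these data known. The scripts were tested on simulated data. Alternatives covered scaling (library totals, DESeq2 1.42.0 size factors), prior counts, limits, assumed dispersions and exchanged RA-DIFF labels. Other tools were Python 3.11.15, pandas 2.3.3 and scipy 1.17.1.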

Additional observations from a re-analysis of the deposited data

Results flagged for a closer look

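Hoxd8 and Hoxd9 differed in direction between the genotypes by label. The log2 ratio of RA-DIFF over ESC was -1.62 for Hoxd8 and -1.87 for Hoxd9 between the libraries labelled wild type, and 1.31 and 1.05 between those labelled Htt-null. With the RA-DIFF labels exchanged they were 0.85 and 1.37, and -1.16 and -2.20. These genes lie side by side in the Hoxd cluster. Hoxa2 differed in direction between stages, with a log2 ratio of the library labelled Htt-null over that labelled wild type of 2.15 in ESC, a bound from 10 counts against 0, and -1.49 in RA-DIFF. With the RA-DIFF labels exchanged the latter takes the opposite sign, so that Hoxa2 goes the same way at both stages. By label, in each case the intervals lay on opposite sides of 0 and both values were past the fold limit. With 1 library per condition the difference was not tested.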

How the results depend on the processing

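The level limit moved the results most, because 5 of the 39 genes pass it. Without it, the Hox genes called higher and lower became 23 and 10 (from 2 and 1) in RA-DIFF over ESC labelled wild type, 24 and 9 (from 4 and 0) labelled Htt-null, 9 and 6 (from 0 and 0) between genotypes in ESC and 7 and 11 (from 2 and 1) in RA-DIFF. The median in the first comparison went from 0.29 to 3.23. With edgeR's average log2 CPM above 0, which 15 Hox genes pass and which is nearer to the limit the study names, an alternative added after seeing the data, the counts were 10 and 3, 12 and 2, 2 and 1, and 8 lower in RA-DIFF between genotypes, and medians were 5.58, 4.57 and, in RA-DIFF between genotypes, -0.86 (from -0.37). Genes scarce in ESC pass that average through RA-DIFF, so its higher calls in RA-DIFF over ESC follow in part from the limit. Medians of sections above the level limit rest on 1 to 3 genes, and several reversed against the values without it, which the report gives. For wild type by label, paralogues 5 to 8 went from -1.62 to 4.24 without the limit and 5.09 with the average, and paralogues 9 to 13 from 1.78 to -1.87 and -2.54. For Htt-null by label, paralogues 9 to 13 went from 2.07 to -1.44 and -6.00, and Hoxd from 1.31 to -2.34 with the average. Between genotypes in RA-DIFF, Hoxd from 2.47 to -0.82 with the average, and paralogues 5 to 8 from 2.47 to -0.31 without the limit. An exact test with an assumed dispersion of 0.1 left 2 genes higher labelled Htt-null in RA-DIFF over ESC, and 1 higher and 0 lower between genotypes in RA-DIFF. Exchanging the RA-DIFF labels gave 4 higher and 0 lower labelled wild type, 2 and 1 labelled Htt-null, and 1 and 2 between genotypes, with medians of 0.37 and, at any level, 0.47. It turned Hoxd8 labelled wild type to 0.85 and moved 6 of the other named gene ratios outside their interval, an alternative added after seeing the data. The ratios of named Hox genes kept their direction within their interval in 100 of 100 recomputations under scaling and prior counts, while the median of Hoxa at any level labelled Htt-null went from 1.46 to 3.46 with a prior count of 0.5 and miRNA ratios moved in 32 of 70, since scaling shifts all miRNAs. Over exon bases that no gene of either strand shares, 17 levels per length moved beyond counting error and 114 did not, and over those unshared on the same strand 7 and 124. Cause was not tested beyond these constructions. Counts limit most ESC ratios. No paired analysis was possible because each condition has 1 library, so that the groups compared share only 1 replicate number. An additive fit of stage and genotype over the 4 libraries, which would use the genotypes as replicates of the stage, was not made.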
